A study of Mus musculus with 3 samples.

Results

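Genes that mark red pulp macrophages or carry out their iron work, 10 in all, were followed in macrophages sorted from spleens of mice with acute myeloid leukemia. They were chosen by symbol: Spic, Vcam1, Hmox1, Blvrb, Slc40a1, Slc11a1, Trf, Tfrc, Ftl1 and Fth1. All 10 were found by NCBI gene ID among the 17615 genes listed in any of the 3 libraries, and all 10 were listed in each library. The leukemia cells, marked with GFP and BFP, had high mM-CSF in 1 group, high sM-CSF in another and neither in the control. The prefixes m and s are not spelled out in the labels. Macrophages depend on M-CSF, which they sense with the receptor CD115. Every recipient was a C57BL/6J mouse aged 6 to 8 weeks that received 800000 leukemia cells with no irradiation, and survival in all groups was 30 to 40 days. Macrophages negative for GR1, intermediate for CD115 and positive for F4/80 were sorted from the spleen at day 18, and 1 ug of total RNA was used per library. No leukemia-free mice were among the groups, so the control library too came from leukemic spleens, and the labels do not say how many mice each library holds.

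Red pulp macrophages engulf aged red blood cells, break down their heme and return the iron to the circulation. The factor SPI-C drives their development, and heme induces it by releasing the repressor BACH1 from its targets. Heme oxygenase opens the heme ring, biliverdin reductases convert its product to bilirubin, NRAMP1 moves iron out of the phagosome, ferritin stores it and ferroportin exports it to transferrin in plasma. Cells take transferrin-bound iron back in through the transferrin receptor. The transcripts of ferritin, ferroportin and the transferrin receptor carry iron-responsive elements, hairpins that the proteins IRP1 and IRP2 bind when iron is scarce. Binding near the 5′ end blocks translation, and binding in the 3′ UTR stabilises the transcript.

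The hairpins are shown because they set apart the members under this control, which acts on translation for ferritin and ferroportin and on the transcript's stability for the receptor. A search of GENCODE M21 transcripts (GRCm38) for an unpaired C, a 5-base stem, the 6-base loop CAGTGN with A, C or T as its last base, and the paired 5-base strand found 7 elements in 4 of the 10 members, reading the sense strand of 1 transcript per gene. They are printed as DNA with 5 flanking bases on each side, and capitals mark the loop. Fth1, Ftl1 and Slc40a1 each had 1 in the 5′ UTR, at chr19:9982733-9982759 (+ strand), chr7:45459780-45459806 (- strand) and chr1:45925466-45925492 (- strand). The 4 of Tfrc lay in its 3′ UTR on the + strand, at chr16:32631220-32631246, chr16:32631599-32631625, chr16:32631664-32631690 and chr16:32631711-32631737.
Fth1: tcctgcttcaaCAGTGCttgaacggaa
Ftl1: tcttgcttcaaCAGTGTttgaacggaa
Slc40a1: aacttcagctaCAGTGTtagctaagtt
Tfrc element 1: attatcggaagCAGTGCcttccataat
Tfrc element 2: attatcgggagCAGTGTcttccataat
Tfrc element 3: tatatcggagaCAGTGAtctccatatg
Tfrc element 4: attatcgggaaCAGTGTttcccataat
The same pattern occurred in 17 of 18924 5′ UTRs (0.0898%) and in 70 of 19098 3′ UTRs (0.367%). The other 6 members held no match, which says only that these letters are not in those UTRs. Likewise, the 4 in Tfrc are those that fit this exact pattern, and elements of another form would be missed. Both ferritin elements share the stem ttcaa paired with ttgaa, whereas the ferroportin stem differs from them.

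Each group was 1 library, so no replicate spread exists, no test between conditions could be made, and every difference describes these libraries. Levels are FPKM, fragments per kilobase of transcript scaled to the library's mapped fragments. FPKM summed over all genes differed between libraries (624289 with mM-CSF and 500018 with sM-CSF, against 452400 in control), so the counts of calls are also given with FPKM rescaled to a constant sum per library (TPM). Differences are of log2(FPKM + 1), and the 2-fold rule called a gene higher or lower at a size of 1 or more with at least 5 FPKM in the higher library. Folds are ratios of a gene's share of the estimated counts, with exact conditional 95% intervals that cover counting error only. Total estimated counts were 8.57e+06, 8.94e+06 and 9.09e+06 in the mM-CSF, sM-CSF and control libraries, so 3 counts correspond to 0.350, 0.335 and 0.330 CPM. In bulk libraries, fewer cells of a type and less RNA per cell cannot be told apart.

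Library differences moved with gene length across all genes. In the mM-CSF library against the control, the median difference was 1.07 in the shortest of 20 length bins and -1.24 in the longest. The corresponding medians were 0.34 and -0.33 for sM-CSF against control, and 0.72 and -0.90 for mM-CSF against sM-CSF. The members run from 862.6 bases (Blvrb) to 4920 bases (Tfrc), so each difference is also given with this running median subtracted, as a length-adjusted difference. The cause of the trend was not tested.

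**Figure D1:**
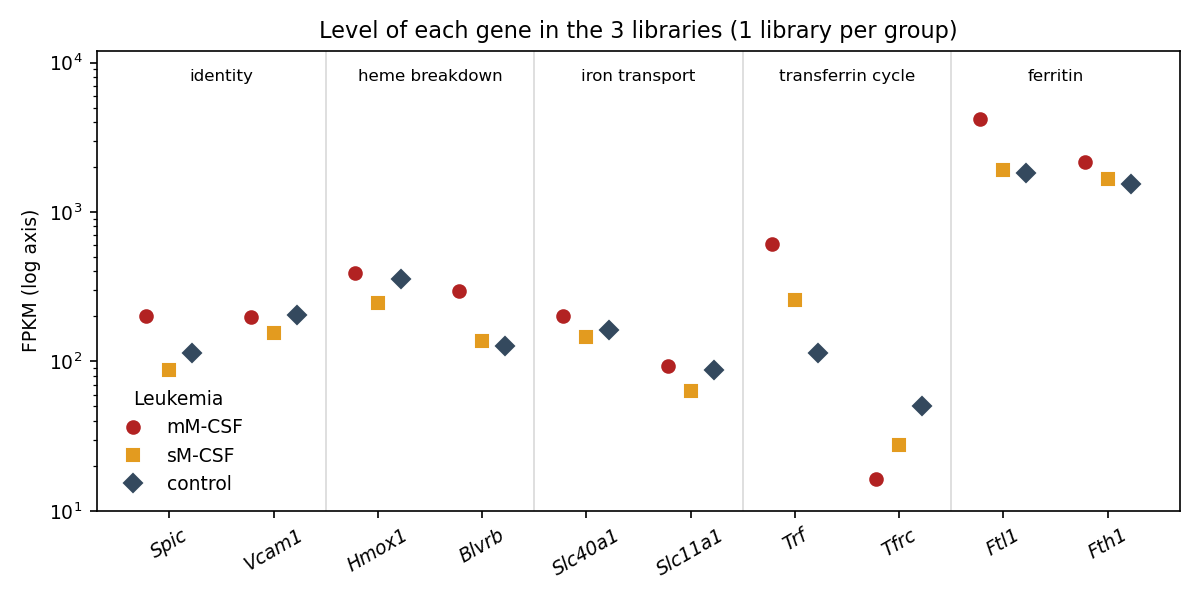
Level of each of the 10 genes (FPKM, log axis) in the mM-CSF library (circles), the sM-CSF library (squares) and the control library (diamonds), 1 library per group and grouped by role. Ferritin is highest in every library, Trf spans 614 to 114 FPKM in the order mM-CSF, sM-CSF, control, and Tfrc runs in the opposite order from 16.2 to 50.3 FPKM.

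Against the control, the mM-CSF library had 3 members higher, Trf, Ftl1 and Blvrb, and 1 lower, Tfrc. Across all 9789 genes measured, 8.97% were higher and 15.1% lower by the same rule. After the length adjustment 1 member, Trf, was higher and 0 were lower, where 3.01% and 7.77% of all genes were. The sM-CSF library had 1 member higher than control, again Trf, and 0 lower, where 0.785% and 1.63% of 9683 genes were higher and lower. Length-adjusted, those counts were 1 (Trf) and 0, against 0.496% and 1.81% of all genes. Between mM-CSF and sM-CSF, 4 members were higher in the mM-CSF library than in the sM-CSF library, Spic, Trf, Ftl1 and Blvrb, and 0 were lower, where 3.79% and 8.73% of 9574 genes were. Length-adjusted, 1 was higher (Trf) and 0 lower, against 1.99% and 4.66% of all genes. Under TPM the split changed: 1 member was higher (Trf) and 1 lower (Tfrc) with mM-CSF than in control, where 2.33% and 29.3% of all genes were. The TPM counts were 1 (Trf) and 0 for sM-CSF against control, where 0.62% and 2.72% of all genes were, and 0 and 1 (Tfrc) for mM-CSF against sM-CSF, where 1.52% and 18.6% were. The median difference over the 10 members was 0.39 for mM-CSF against control, -0.26 for sM-CSF against control and 0.60 for mM-CSF against sM-CSF, and the medians over all measured genes were -0.0458, 0.017 and -0.0778. Both comparisons with the control share that library, and all 3 comparisons draw on the same 3 libraries.

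**Figure D2:**
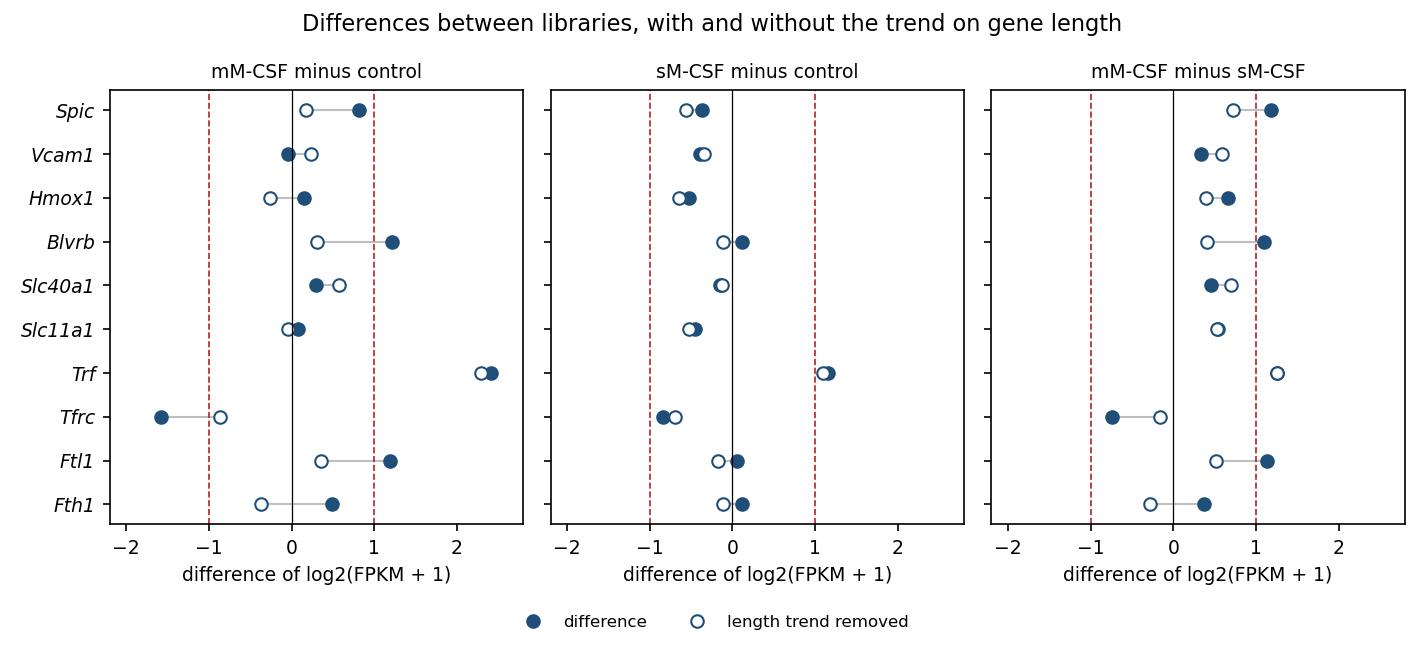
Difference of log2(FPKM + 1) for each gene in the 3 comparisons, as measured (filled) and with the running median over gene length subtracted (open). Dashed lines mark the 2-fold rule at -1 and 1. Trf lies beyond 1 in all 3 comparisons either way, whereas Ftl1, Blvrb, Tfrc and Spic pass a dashed line only before the subtraction.

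Transferrin (Trf), the plasma carrier of iron that the liver makes in bulk and that some macrophages also express, stood furthest apart. It reached 614 FPKM in the mM-CSF library and 257 FPKM in the sM-CSF library, against 114 FPKM in the control, from 12371, 5379 and 2428 estimated reads. The mM-CSF library is the highest and the control the lowest. Its share of counts was 5.40-fold that of the control in the mM-CSF library (95% interval 5.17 to 5.65) and 2.25-fold in the sM-CSF library (2.15 to 2.36). Set directly against sM-CSF, it was 2.40-fold higher with mM-CSF (2.32 to 2.48). The differences of 2.41, 1.16 and 1.25 on the log2 scale became 2.30, 1.10 and 1.25 after length adjustment. Trf ranked 34 of 9789 genes from the highest difference for mM-CSF against control, 52 of 9683 for sM-CSF against control and 151 of 9574 for mM-CSF against sM-CSF. By level, it was the 140th most abundant gene in the mM-CSF library, the 228th in the sM-CSF library and the 540th in the control. The difference between mM-CSF and sM-CSF was the least secure of the 3, at 0.94 under TPM. Plasma protein genes of hepatocytes were near 0 in all libraries: the 6 listed for this purpose summed to 0.25, 0.33 and 0.41 FPKM, and Alb, Ttr, Fgb and Ahsg were listed in none. A predicted protein-coding gene, Gm20425, overlaps exons of Trf on the same strand in GENCODE M21, and the authors' counts for Trf were whole numbers in every library.

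The transferrin receptor (Tfrc), which brings iron-loaded transferrin into cells and is abundant on red cell precursors, ran in the reverse order. Its level was 16.2 FPKM in the mM-CSF library and 27.8 FPKM in the sM-CSF library, against 50.3 FPKM in the control, from 695, 1235 and 2269 reads. The control library is the highest and the mM-CSF library the lowest. Relative to control, its share of counts was 3.08-fold lower with mM-CSF (2.83 to 3.36) and 1.81-fold lower with sM-CSF (1.69 to 1.94). Between mM-CSF and sM-CSF it was 1.70-fold lower with mM-CSF (1.55 to 1.87). As the longest of the 10 genes, Tfrc was also among those most altered by the length adjustment: its difference from control of -1.57 with mM-CSF became -0.87, under the 2-fold rule, and -0.74 between mM-CSF and sM-CSF became -0.16. Its difference of -0.83 for sM-CSF against control became -0.69. Erythroid genes were lower in 6 of 14 measured with mM-CSF than in control and in 5 of 14 with sM-CSF, where 15.1% and 1.63% of all genes were lower. Their summed levels did not keep the order of Tfrc, at 4540, 3919 and 5321 FPKM in the mM-CSF, sM-CSF and control libraries. Hba-a1 and Hbb-bs led these sums. Between mM-CSF and sM-CSF, 0 of 12 erythroid genes were lower, where 8.73% of all genes were. The erythroid median in that comparison was 0.12 and became -0.35 after length adjustment. Length-adjusted, 8 of 14 erythroid genes were lower with mM-CSF than in control and 5 of 14 with sM-CSF. Of all genes, 7.77% and 1.81% were then lower. The part of erythroid RNA in the Tfrc result was not tested. Within the libraries, the ratio of Trf to Tfrc in FPKM was 37.9 with mM-CSF and 9.27 with sM-CSF, against 2.28 in control. The ratio in the mM-CSF library was 16.6-fold that in control (approximate 95% counting interval 15.1 to 18.3), and 8.98-fold when taken from the length-adjusted differences.

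The genes nearest to these patterns were found among 5119 genes at 20 FPKM or more in at least 1 library, by Euclidean distance over the log2 differences of mM-CSF and of sM-CSF from control. Nearest to Trf were, among others, Mir3082, Ly6k, Prg2 and Nyx, at distances from 0.0821 to 0.409. Mir3082 is a 64-base entry, for which FPKM rests on few fragments, and Ly6k had 24.9, 11.5 and 4.41 FPKM in the mM-CSF, sM-CSF and control libraries. For Tfrc the 5 nearest were Cd244a, Ermap, Ahnak, Nadk and Eno3, at distances from 0.0197 to 0.127. Cd244a had 11.2, 19.7 and 35.5 FPKM in the same order, and Ermap, a red cell membrane gene, had 10.3, 17.0 and 31.1 FPKM. Each distance rests on 3 libraries.

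Ferritin light chain (Ftl1), the subunit that helps form the mineral core, was the most abundant member. It stood at 4201 FPKM in the mM-CSF library and 1909 FPKM in the sM-CSF library, against 1836 FPKM in the control, which made it the 9th, 21st and 13th most abundant of all genes. The mM-CSF library stands apart, and the other two lie close together. With mM-CSF its share of counts was 2.30-fold that of control (2.26 to 2.35) and 2.21-fold that with sM-CSF (2.17 to 2.25), and the sM-CSF share was 1.04-fold that of control (1.02 to 1.06). At 986 bases Ftl1 is short, and the length adjustment took its difference from 1.19 to 0.36 for mM-CSF against control and from 1.14 to 0.52 for mM-CSF against sM-CSF. Under TPM these differences were 0.73 and 0.82.

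Ferritin heavy chain (Fth1), the subunit that oxidises iron for storage, had 2147 FPKM with mM-CSF and 1663 FPKM with sM-CSF, against 1531 FPKM in control. The libraries stand in the same order as for Ftl1. Relative to control, Fth1 took 1.41 times the share of counts with mM-CSF (1.38 to 1.44) and 1.09 times with sM-CSF (1.06 to 1.11). No comparison passed the 2-fold rule, and the difference of 0.49 for mM-CSF against control was -0.37 once length-adjusted and 0.02 under TPM. The chains are of nearly the same length, 986 and 942.1 bases, so their ratio is little touched by the length trend. Ftl1 was 1.96 times Fth1 in the mM-CSF library and 1.15 times in the sM-CSF library, against 1.20 times in control. The ratio in the mM-CSF library was 1.63-fold that in control (1.58 to 1.68) and 1.71-fold that in the sM-CSF library (1.66 to 1.76), while the ratio with sM-CSF was 0.957-fold that in control (0.927 to 0.989). Fragments from ferritin pseudogenes can be divided between copies: the estimated count of Ftl1 was not a whole number in 1 library, that of Fth1 was whole in all 3, and an annotated microRNA entry and an unclassified entry overlap exons of Ftl1.

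Heme oxygenase 1 (Hmox1), which opens the heme ring and frees its iron, had 392 FPKM in the mM-CSF library and 247 FPKM in the sM-CSF library, against 354 FPKM in the control. The sM-CSF library is the lowest. Its share of counts with sM-CSF was 0.697-fold that of control (0.668 to 0.728), and with mM-CSF it was 1.11-fold that of control (1.07 to 1.16) and 1.60-fold that with sM-CSF (1.53 to 1.67). None of these passes the 2-fold rule, and the sign of the small difference from control with mM-CSF, 0.15, turned to -0.26 after length adjustment. The constitutive isoenzyme gene Hmox2 did not follow the same order: it had 92.1, 63.8 and 56.8 FPKM in the mM-CSF, sM-CSF and control libraries. The ratio of Hmox1 to Hmox2 was 4.26 with mM-CSF and 3.87 with sM-CSF, against 6.24 in control.

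Biliverdin reductase B (Blvrb), an NADPH-dependent reductase of biliverdin and flavins, had 296 FPKM in the mM-CSF library and 138 FPKM in the sM-CSF library, against 127 FPKM in the control. Here too the mM-CSF library stands apart from the other two. Counted reads of Blvrb made up a share 2.35-fold that of control with mM-CSF (2.17 to 2.53) and 2.16-fold that with sM-CSF (2.01 to 2.33), whereas the ratio of sM-CSF to control, 1.09, had an interval that includes 1 (0.994 to 1.19). Blvrb is the shortest of the 10 genes, and its difference of 1.21 from control with mM-CSF was 0.30 once length-adjusted and 0.75 under TPM. Blvra, which encodes the other biliverdin reductase, kept a similar proportion to Blvrb, at 0.199, 0.178 and 0.177 of its FPKM in the mM-CSF, sM-CSF and control libraries. Blvrb set against Hmox1 gave 0.754 with mM-CSF and 0.559 with sM-CSF, against 0.358 in control, a ratio that the difference in length between these genes also moves.

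**Figure D3:**
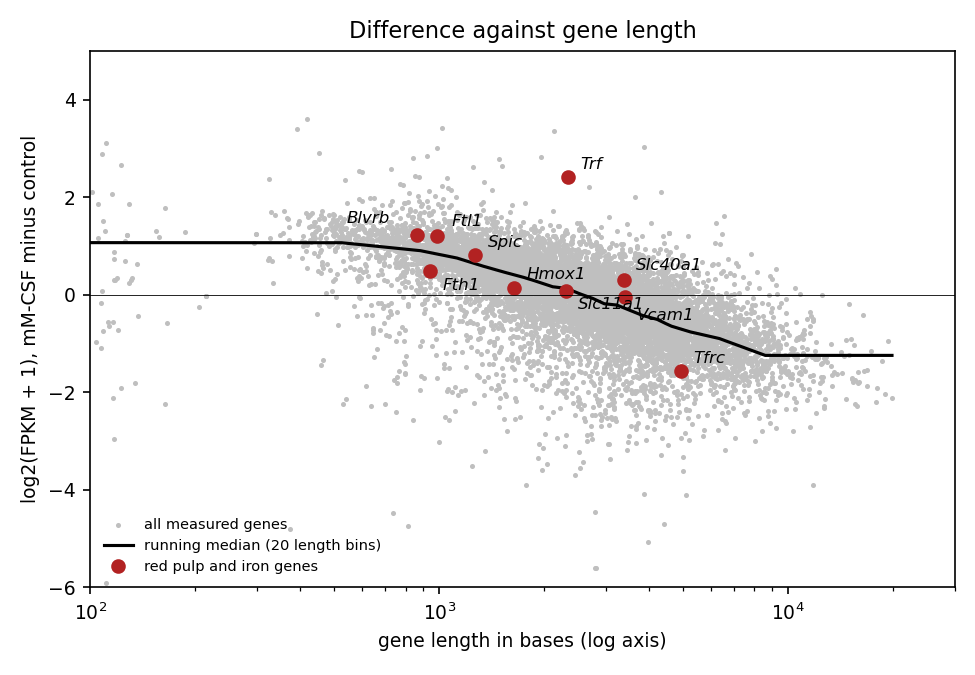
Difference of log2(FPKM + 1), mM-CSF minus control, against gene length in bases (log axis) for all measured genes (grey), with the running median over 20 length bins (line) and the 10 genes (red). Blvrb and Ftl1 lie near the line among short genes, Tfrc lies below it among long genes, and Trf lies 2.30 above it.

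Ferroportin (Slc40a1), the only known exporter of iron from mammalian cells, had 201 FPKM in the mM-CSF library and 147 FPKM in the sM-CSF library, against 164 FPKM in the control. The mM-CSF library is the highest and the sM-CSF library the lowest. Ferroportin reads made up a share 1.24-fold that of control with mM-CSF (1.19 to 1.29), 0.899-fold with sM-CSF (0.863 to 0.936), and 1.38-fold higher with mM-CSF than with sM-CSF (1.33 to 1.43). These lie within the 2-fold rule. Because Slc40a1 is long (3380 bases), length adjustment raised its difference from control with mM-CSF from 0.30 to 0.57, whereas TPM turned it to -0.16. Relative to Tfrc, the importer, ferroportin was 12.4 times as abundant per length with mM-CSF and 5.29 times with sM-CSF, against 3.25 times in control. The ratio with mM-CSF over that in control, 3.82-fold as counted, was 2.71-fold from the length-adjusted differences.

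NRAMP1 (Slc11a1), the transporter that moves iron and manganese out of the phagosome, had 93.4 FPKM with mM-CSF and 63.9 FPKM with sM-CSF, against 88.1 FPKM in control. The sM-CSF library is the lowest and the other two are close. C57BL/6 mice carry a loss-of-function allele of this gene, so its RNA does not report transporter activity here. Its share of counts with sM-CSF was 0.726-fold that of control (0.676 to 0.780), and the interval of the ratio of mM-CSF to control includes 1 (1.07, 0.999 to 1.14). Estimated counts of Slc11a1 were not whole in any of the 3 libraries. The related ubiquitous iron transporter gene Slc11a2 had 9.79, 11.9 and 15.2 FPKM in the mM-CSF, sM-CSF and control libraries.

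Spic, the gene of the factor SPI-C, had 201 FPKM in the mM-CSF library and 88.2 FPKM in the sM-CSF library, against 114 FPKM in the control, from 2171, 988 and 1294 reads. The mM-CSF library is the highest and the sM-CSF library the lowest. Spic reads were 2.29-fold higher as a share of counts with mM-CSF than with sM-CSF (2.13 to 2.47), a difference of 1.18 that became 0.72 after length adjustment and 0.87 under TPM. Against control it was 1.78-fold with mM-CSF (1.66 to 1.91) and 0.776-fold with sM-CSF (0.713 to 0.843). The difference of 0.82 from control with mM-CSF became 0.18 after length adjustment. Set against Adgre1, the gene of F4/80 on which the cells were sorted, Spic was 2.98 times as abundant with mM-CSF and 1.35 times with sM-CSF, against 1.13 times in control. Adgre1 is the longer gene, and the ratio with mM-CSF over that in control, 2.63-fold as counted, was 1.44-fold from the length-adjusted differences. Bach1, whose product holds Spic down until heme removes it, had 2.57 FPKM with mM-CSF and 9.86 FPKM with sM-CSF, against 18.9 FPKM in control. That order is the opposite of Trf but not of Spic, which was lowest with sM-CSF. The Bach1 difference of -2.48 between mM-CSF and control was -1.64 after length adjustment.

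Vcam1, an adhesion molecule on the surface of red pulp macrophages and of endothelium, had 197 FPKM with mM-CSF and 156 FPKM with sM-CSF, against 204 FPKM in control. The mM-CSF and control libraries are close and the sM-CSF library is lower. The ratio of counts of mM-CSF to control was 0.974 with an interval that includes 1 (0.940 to 1.01), that of sM-CSF to control was 0.765 (0.737 to 0.795), and that of mM-CSF to sM-CSF was 1.27 (1.22 to 1.32). The differences in these comparisons, in the same order, were -0.05, -0.39 and 0.34. They became 0.23, -0.35 and 0.59 after length adjustment. Spic and Vcam1 differed from control by similar amounts with sM-CSF, -0.36 and -0.39, or -0.56 and -0.35 after length adjustment. With mM-CSF their differences from control were 0.82 and -0.05, which became 0.18 and 0.23 after length adjustment. Endothelial genes summed to 55.7, 64.8 and 68.5 FPKM over 7 genes in the mM-CSF, sM-CSF and control libraries, of which only Pecam1 and Stab2 reached 5 FPKM, and the 8 stromal fibroblast genes were each under 1 FPKM, with Pdgfra and Dcn at 0. An antisense gene, Gm43109, overlaps Vcam1, and the sources used here do not say whether counting used the strand.

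The other identity genes of red pulp macrophages were present in each library. All 14 on the list reached 5 FPKM somewhere, led by Cd68 and Csf1r, and they summed to 1492, 1165 and 1481 FPKM in the mM-CSF, sM-CSF and control libraries. Adgre1 had 67.5, 65.5 and 101 FPKM and Csf1r 222, 149 and 268 FPKM in that order, both being genes of markers used in the sort. With mM-CSF against control, 0 of 14 were higher and 1 was lower, the efferocytosis receptor gene Mertk (17.8 against 42.2 FPKM), where 8.97% and 15.1% of all genes were, and the list median was 0.03. After length adjustment 1 was higher, Axl at 1.52, and 0 were lower, Mertk being at -0.86. With sM-CSF against control, 0 were higher and 1 was lower, Pparg (13.8 against 30.6 FPKM), with a median of -0.31. Of all genes, 0.785% were higher and 1.63% lower there. Between mM-CSF and sM-CSF, 2 were higher with mM-CSF: Cd5l, a secreted scavenger-family protein gene, at 119 against 40.7 FPKM, and Nr1h3, the gene of LXR-alpha, at 53.9 against 24.8 FPKM. Of all genes, 3.79% were higher and 8.73% lower with mM-CSF than with sM-CSF. Length-adjusted, Cd5l and Axl were higher in that comparison and Nr1h3, at 0.88, was not. LXR-alpha is better known in the spleen for marginal zone macrophages. Of the marginal zone genes, Cd209b was under 5 FPKM in every library, and Marco, Siglec1 and Timd4 were measured against control, where none passed the rule before length adjustment and Siglec1, at 1.36 with mM-CSF, did after it. Axl, the relative of Mertk, was at 157 FPKM with mM-CSF and 101 FPKM with sM-CSF, against 88.8 FPKM in control.

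Among 9 measured genes of heme and hemoglobin handling, 2 were higher with mM-CSF than in control, Blvra (58.8 against 22.5 FPKM) and the heme-binding protein gene Hebp1 (78.2 against 34.5 FPKM). In the same comparison 2 were lower, the heme exporter gene Flvcr1 (6.33 against 21.9 FPKM) and Lrp1, the receptor for heme bound to hemopexin (19.3 against 47.0 FPKM). Across all genes 8.97% were higher and 15.1% lower. After length adjustment 0 of the 9 were higher and 1 was lower, Flvcr1 at -1.21, with Blvra at 0.80, Hebp1 at 0.37 and Lrp1 at 0.005. The list median of 0.64 was 0.05 on that scale. With sM-CSF against control, 0 were higher and 2 lower, Lrp1 (21.5 against 47.0 FPKM) and haptoglobin, Hp (8.92 against 19.1 FPKM), of which Hp alone passed the rule after length adjustment. In that comparison 0.785% of all genes were higher and 1.63% lower. Between mM-CSF and sM-CSF, 3 were higher with mM-CSF (Blvra, Hebp1 and Hp) and Flvcr1 was lower, and after length adjustment Hp was higher and 0 were lower. The shares of all genes higher and lower there were 3.79% and 8.73%, and 1.99% and 4.66% once length-adjusted. Slc48a1, which carries heme out of the phagolysosome, had 76.4, 44.7 and 48.5 FPKM in the mM-CSF, sM-CSF and control libraries.

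Genes of iron uptake, iron sensing, heme synthesis and the response to heme were read against the same shares of all genes, 8.97% higher and 15.1% lower with mM-CSF and 0.785% higher and 1.63% lower with sM-CSF. Of 9 measured genes of iron uptake and intracellular transport, 0 were higher and 1 lower with mM-CSF than in control, the mitochondrial importer mitoferrin gene Slc25a37 at 19.0 against 57.6 FPKM, and none passed the rule with sM-CSF against control. Slc25a37 remained past the rule after length adjustment, and with sM-CSF the ferrireductase gene Steap3 was then lower. Of 7 iron-sensing and ferritin-turnover genes, 1 was lower with mM-CSF, Ireb2, which encodes IRP2, at 6.20 against 16.7 FPKM, and none with sM-CSF. Ireb2 was at -0.46 after length adjustment, which left 0 of 7 past the rule. Aco1, which encodes IRP1, had 11.7, 11.1 and 11.6 FPKM in the mM-CSF, sM-CSF and control libraries. The ferritin receptor gene Ncoa4, which sends ferritin to lysosomes, had 27.9 FPKM with mM-CSF and 38.8 FPKM with sM-CSF, against 50.6 FPKM in control. Of 9 heme synthesis genes, 2 were lower with mM-CSF (Cpox and Fech) and 1 with sM-CSF (Cpox), and Cpox had 17.3 and 23.1 FPKM against 48.0 FPKM in control. After length adjustment Alas2 was lower as well with mM-CSF and Alad was higher. Of 11 genes of the BACH1 and NRF2 factors and their antioxidant targets, 3 were lower with mM-CSF (Bach1, Nfe2l2 and Gclc) and none with sM-CSF. After length adjustment 2 were lower with mM-CSF, Bach1 and Nfe2l2, with Gclc at -0.88, and 1 was higher, the cystine transporter gene Slc7a11 at 1.77. The gene of NRF2, Nfe2l2, had 24.6 FPKM with mM-CSF and 35.7 FPKM with sM-CSF, against 60.0 FPKM in control. Hepcidin (Hamp), the ferroportin-degrading hormone, stayed at 0.31, 0.29 and 0.29 FPKM, under the 5 FPKM minimum.

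**Figure D4:**
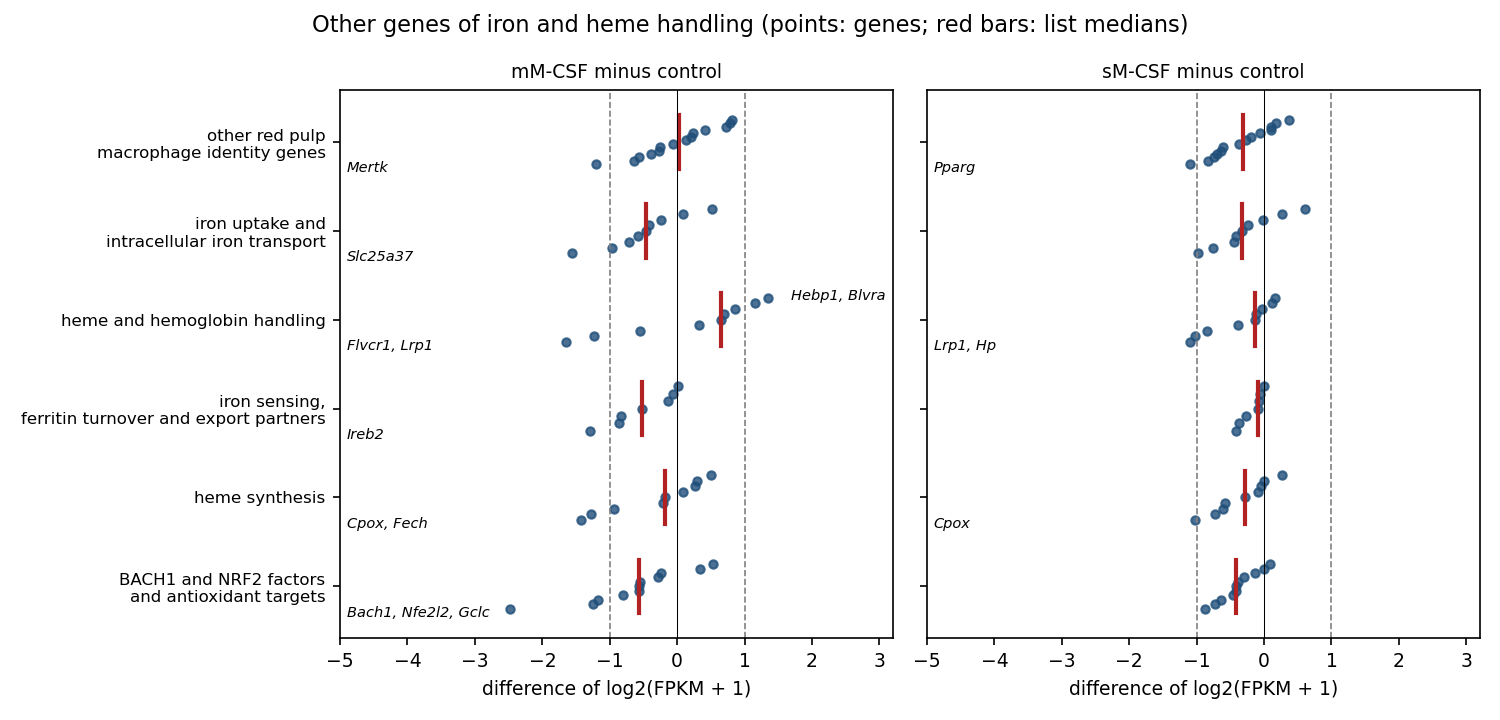
Difference of log2(FPKM + 1) for each measured gene of 6 lists around the 10 genes, mM-CSF minus control (left) and sM-CSF minus control (right). Points are genes, red bars are list medians, dashed lines mark the 2-fold rule and names give the genes beyond it. Bach1 lies furthest left, at -2.48, and the heme and hemoglobin list has the highest median, 0.64, in the left panel.

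RNA of other cell types was present and differed between the libraries, and its part in the results for the 10 genes was not tested. Against control, genes of granulocytic cells were higher with mM-CSF in 8 of 8 measured, led by Elane and Mpo, with a summed level of 1063 FPKM with mM-CSF and 204 FPKM with sM-CSF, against 193 FPKM in control. The sort gate was negative for GR1, and which cells carried these transcripts was not tested. Plasma cell genes, led by Jchain and Mzb1, were higher in 5 of 6 (4412 and 1453 FPKM against 1395 FPKM in control), and T cell genes in 5 of 6 (669 and 439 against 228 FPKM). B cell genes summed to 2677 and 2454 FPKM against 1318 FPKM in control, with 3 of 8 higher with mM-CSF and 3 of 8 with sM-CSF. Non-classical monocyte genes were lower in 5 of 6 with mM-CSF and 6 of 6 with sM-CSF (155 and 271 against 783 FPKM), and dendritic cell genes in 5 of 6 with mM-CSF and 0 of 6 with sM-CSF (118 and 350 against 378 FPKM). Cycling-cell genes summed to 199 and 137 FPKM against 218 FPKM in control, with Mki67 alone past the rule, lower in both. Of these 6 genes, 3 were above and 3 below control with mM-CSF, and all 6 were below it with sM-CSF. Across all measured genes, 8.97% were higher and 15.1% lower with mM-CSF, and 0.785% and 1.63% with sM-CSF. After length adjustment the counts with mM-CSF against control were 7 of 8 for granulocytic, 3 of 6 for plasma cell, 3 of 6 for T cell and 0 of 8 for B cell genes higher, and 6 of 6 for non-classical monocyte and 4 of 6 for dendritic cell genes lower. Of all genes, 3.01% were then higher and 7.77% lower. With sM-CSF 0 of 8 B cell and 0 of 6 T cell genes were higher after length adjustment. In that comparison 5 of 6 non-classical monocyte genes were lower, and of all genes 0.496% were higher and 1.81% lower. Mki67 was at 0.02 with mM-CSF and -0.70 with sM-CSF. When levels were scaled to 5 macrophage genes (Adgre1, Csf1r, Mrc1, Cd68 and Sirpa, which summed to 806, 654 and 877 FPKM), a choice made after the data were seen, Trf differed from control by 2.54 with mM-CSF and 1.58 with sM-CSF and Tfrc by -1.45 and -0.42. On the same scaling Ftl1 and Blvrb differed from control by 1.32 and 1.34 with mM-CSF, and the differences of Spic, Trf, Ftl1 and Blvrb between mM-CSF and sM-CSF were 0.88, 0.95, 0.84 and 0.80, all under the 2-fold rule.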

How the data were processed

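Per the file headers, each deposited table lists NCBI gene IDs with the authors' expected count, the gene's length and its FPKM. The expected counts are the authors' estimates of reads per gene, deposited unnormalized, and need not be whole. FPKM, as deposited, is the authors' scaling of those reads to gene length and library size. Per the submitters' processing notes, Bowtie2 (2.2.5) and RSEM were used; a genome build is not given in the sources used here. A gene absent from a table counted as 0. Symbols came from a RefSeq table, which named 17561 of 17615 IDs. The 10 genes, the pathway and marker lists and the size rule were chosen with earlier results of these data known. Named genes were all 10 members, up to 4 genes per pathway list and comparison with the largest difference at a minimum of 5 FPKM, the 2 most abundant genes of each marker list, and the 5 genes nearest to Trf and to Tfrc. Hmox2, Slc48a1, Aco1, Hamp, Adgre1, Mrc1 and Sirpa were added after their values were seen. Some genes that this rule gives, and 1 pathway list, are not reported here. With 1 library per group, no test was run. Differences used a pseudocount of 1 FPKM. Counting intervals are exact conditional (Clopper-Pearson, 95%) on rounded expected counts for single genes, and a normal approximation on the log scale for ratios of genes. Expected counts were whole within 0.005 reads for 76.7%, 75.9% and 75.7% of listed genes in the mM-CSF, sM-CSF and control libraries. Calculations used Python 3.11.15, NumPy 2.4.6, pandas 2.3.3 and SciPy 1.17.1, and were tested on simulated data. Iron-responsive elements were read from GENCODE M21 transcripts (GRCm38), independent of the authors' build.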

Additional observations from a re-analysis of the deposited data

How the results depend on the processing

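No paired analysis was possible because each group is 1 library, and for the same reason no library could be left out. Counts are given as higher and lower for mM-CSF against control, sM-CSF against control, and mM-CSF against sM-CSF; as reported they were 3 and 1, 1 and 0, and 4 and 0. A 1.5-fold rule gave 4 and 1, 1 and 1, and 5 and 1, and a 3-fold rule gave 1 and 0, 0 and 0, and 0 and 0. TPM scaling gave 1 and 1, 1 and 0, and 0 and 1. Removing the length trend gave 1 and 0 in each. Scaling to 5 macrophage genes, chosen after the data were seen, gave 3 and 1, 1 and 0, and 0 and 1. The shares of all genes called under the 1.5-fold rule, the 3-fold rule and the macrophage scaling are not reported here. The member counts under those settings therefore cannot be read against a background. The counts were the same as reported with a pseudocount of 0.1, no minimum, a minimum of 10 FPKM, median-of-ratios scaling, upper-quartile scaling and CPM of the estimated counts. TPM moved the median of all genes to -0.50, -0.12 and -0.39 in these comparisons, against -0.05, 0.02 and -0.08 as reported, and the macrophage scaling moved it to 0.07, 0.42 and -0.36. Over these 11 alternatives the difference of Trf from control ran from 1.96 to 2.54 with mM-CSF and from 1.02 to 1.58 with sM-CSF, and that of Tfrc from -2.05 to -0.87 and from -0.99 to -0.42. The sign of the difference from control turned under at least 1 alternative for Vcam1, Hmox1, Slc40a1, Slc11a1 and Fth1 with mM-CSF, and for Spic, Vcam1, Slc40a1, Ftl1, Fth1 and Blvrb with sM-CSF; between mM-CSF and sM-CSF it turned for Fth1. The cause was not tested. What limits these data is the absence of replicates: counting error of the 10 genes is small, and variation between mice is unknown.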
